A study of Homo sapiens with 6 samples.

Results

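The genes described here encode 8 proteins that neutrophils pack into their granules: AZU1 and PRTN3 of the primary granules, LTF, LCN2 and CAMP of the secondary granules, MMP9 of the tertiary granules, LYZ, which is found in several granule classes, and SRGN, the proteoglycan of the granule matrix. They were taken by gene symbol, and all 8 had a value in each of the CTR, CEBPA and P30 cells, among 16586 symbols with 1 value in all groups. RNA was sequenced from 6 samples of K562 cells. K562 is a line derived from a human chronic myeloid leukemia, it has features of red cell precursors, and by the study's account it makes neither isoform of C/EBPα by itself. The cells carried a stable PiggyBac transposon with an empty Tet-inducible cassette (CTR), with wild-type C/EBPα (CEBPA) or with the shorter p30 isoform (P30), and there were 2 replicates of each. All 3 groups received 200 ng/ml doxycycline, the drug that switches the cassette on, for 48 h, so that doxycycline itself is shared by all of them. Whether each line was a single clone is not given in the sources used here, and a difference between separately made lines cannot be told apart from the effect of the transgene. The level of CEBPA itself was not analysed here.

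The values are FPKM, that is, sequenced fragments scaled to the length of the transcript and to the size of the library, which can be compared between genes because they are per length. For each gene and group a single FPKM was deposited, into which both replicates had been merged, so there is no spread between replicates, no test and no replicate check for any value that follows, and the depth of each sample is unknown from the files. Differences were taken between values of log2(FPKM + 1), on which a low gene appears less changed than it is, and a gene was compared in a pair of groups if it had over 1 FPKM in at least 1 of them.

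LTF, LCN2, CAMP, LYZ and SRGN were much higher in the CEBPA cells than in CTR, whereas AZU1 differed little and PRTN3 was too low to compare. CAMP and LTF were compared only because CEBPA exceeded 1 FPKM. A contrast of secondary with primary granule members therefore rests on LCN2 and AZU1, which alone could have differed in either direction. LCN2, LYZ and SRGN, already present in CTR, were 67.0, 39.2 and 5.14 times as high in CEBPA by FPKM. CAMP and LTF went from near 0 to 12.2 and 2.28 FPKM, whereas AZU1 had 2.54 FPKM in CTR and 2.20 in CEBPA. In P30 none of the 4 members compared differed 2-fold from CTR, where 1.02% of all genes compared were higher and 0.613% lower. So small a count cannot be told apart from those shares. The largest difference was that of AZU1, which had 4.32 FPKM in P30. PRTN3 and MMP9 stayed below 1 FPKM in every group.

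Neutrophils make their granules one after the other as they mature. Primary (azurophil) granules form at the promyelocyte stage and hold the serine proteases of the neutrophil, secondary (specific) granules form at the myelocyte stage and hold lactoferrin and other antimicrobial proteins, and tertiary granules follow with gelatinase. A protein is sorted into a granule class largely by when its gene is active, and C/EBPε, a later member of the C/EBP family, is known to be required for secondary granule genes. C/EBPα acts earlier, at the entry into the granulocyte lineage, and its p30 isoform lacks the N-terminal activation domain.

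**Figure D1:**
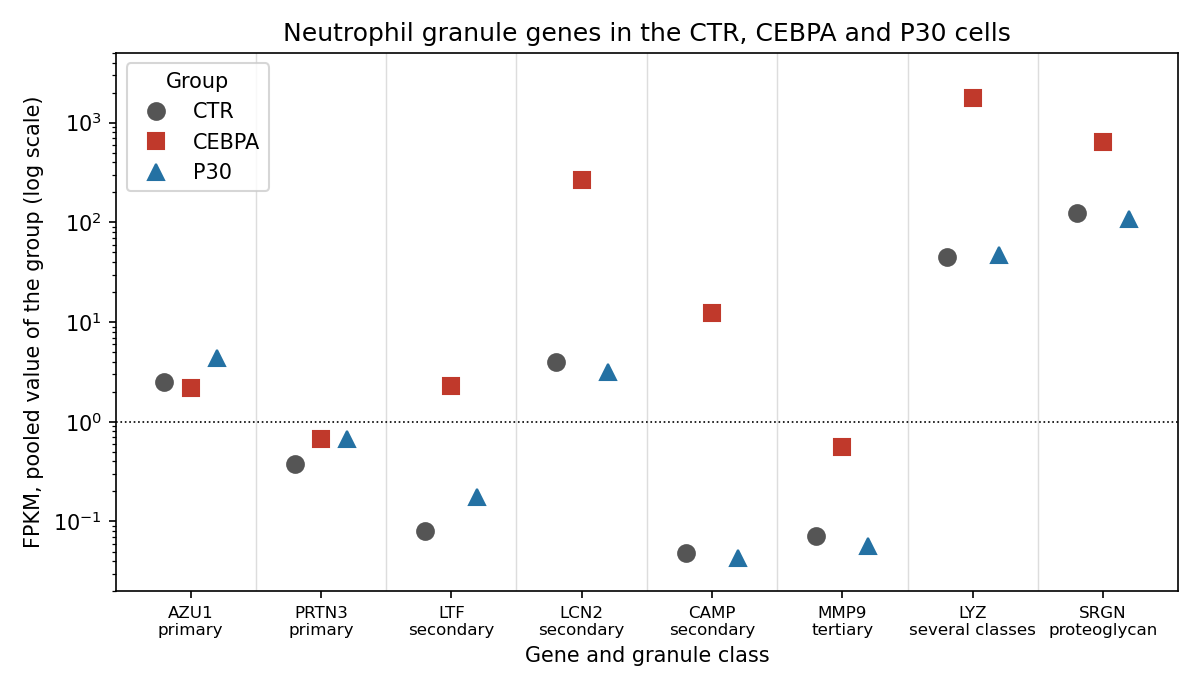
FPKM (log scale, vertical axis) of the 8 granule genes (horizontal axis, with granule class) in CTR, CEBPA and P30, each point being 1 value pooled over the 2 replicates of a group and the dotted line marking 1 FPKM. The CEBPA squares of LCN2, CAMP, LYZ, SRGN and LTF lie far above CTR and P30, at 264, 12.2, 1781, 636 and 2.28 FPKM. That of MMP9 also lies above both, but under the dotted line at 0.556 FPKM. Those of AZU1 and PRTN3 do not lie above both other groups.

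AZU1 encodes azurocidin, a serine protease homolog of the primary granules that has lost its enzymatic activity and acts as an antimicrobial protein and chemoattractant. Its FPKM was 2.54 in CTR, 2.20 in CEBPA and 4.32 in P30, so that P30 was the highest group. The difference of log2(FPKM + 1) was -0.14 in CEBPA vs CTR, 0.59 in P30 vs CTR and -0.73 in CEBPA vs P30. PRTN3 encodes proteinase 3, an active protease of the same granules and the target of autoantibodies in some forms of vasculitis. It had 0.378 FPKM in CTR against 0.670 in CEBPA and 0.674 in P30, all under the 1 FPKM needed for a comparison.

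These 2 genes are neighbours. AZU1 (ENSG00000172232) spans 825097 to 832018 of chromosome 19, plus strand, in GRCh37, the same build as the hg19 of the alignments. PRTN3 (ENSG00000196415) begins 8981 bp further on the same strand and spans 840999 to 848175. The main transcript of each has 5 exons in the annotation, a later Gencode release than the authors' own. No other annotated gene overlaps either of them. The nearest coding gene with a value after PRTN3 was CFD, which encodes complement factor D and had 23.3 FPKM in CTR, 38.2 with CEBPA and 36.5 with P30. PALM, on the other side of AZU1, had 17.6, 6.05 and 11.9 FPKM.

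The 150 bases before the annotated start of AZU1 and PRTN3 are shown because C/EBP proteins bind DNA, and so that they can be set beside those of the secondary granule genes. They are from RefSeq (GRCh38.p14, plus strand), at chr19:827687-827836 for AZU1 and chr19:840849-840998 for PRTN3. Capitals mark each match, on either strand, to TTNNGNAA or TGNNGNAA, 2 loose forms of the C/EBP binding motif that were chosen after the values had been seen and that cannot match at the same position.
AZU1: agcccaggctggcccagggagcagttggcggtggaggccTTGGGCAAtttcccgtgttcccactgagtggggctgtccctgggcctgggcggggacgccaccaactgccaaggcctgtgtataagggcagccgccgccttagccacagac
PRTN3: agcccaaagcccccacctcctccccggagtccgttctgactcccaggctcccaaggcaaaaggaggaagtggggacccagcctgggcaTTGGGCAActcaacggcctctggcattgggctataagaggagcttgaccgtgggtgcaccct

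Both primary granule promoters thus held the same 8 bases, TTGGGCAA, which begin 111 bases before the start in AZU1 and 62 bases before it in PRTN3. This also matches TTGCNNAA, a stricter form with 1 complete half-site that is contained in TTNNGNAA. Of 35116 RefSeq promoters of 300 bases, 10.5% held TTGCNNAA on either strand, 36.8% held TTNNGNAA and 43.3% held TGNNGNAA. A match is a string of letters in this window and does not show that a protein binds there.

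Among the secondary granule genes, LCN2 had the largest difference. It encodes lipocalin 2 (NGAL), which starves bacteria of iron by binding their siderophores. LCN2 had 3.94 FPKM in CTR against 264 in CEBPA and 3.16 in P30, so that CEBPA stood apart while CTR and P30 were close. The difference of log2(FPKM + 1) was 5.74 in CEBPA vs CTR, the 25th highest of 13673 genes, and 5.99 in CEBPA vs P30, the 18th highest of 13569. By level, LCN2 ranked 9641 of 16586 symbols in CTR and 10102 in P30, but 290 in CEBPA.

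CAMP encodes cathelicidin, which is stored as a precursor and cut by proteinase 3 into an antimicrobial peptide. It had 0.0480 FPKM in CTR, 12.2 with CEBPA and 0.0427 with P30, so that on the log2(FPKM + 1) scale CEBPA was 3.65 above CTR and 3.66 above P30. LTF encodes lactoferrin, an iron-binding protein and a defining content of secondary granules. It had 0.0807 FPKM in CTR against 2.28 in CEBPA and 0.175 in P30, with CEBPA 1.60 above CTR and 1.48 above P30 on the same scale. Both genes were compared only because CEBPA exceeded 1 FPKM, and the size of their differences rests on the pseudocount: with 0.1 in place of 1, that in CEBPA vs CTR was 6.38 for CAMP and 3.72 for LTF.

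The 3 secondary granule genes therefore had very unequal levels in CEBPA. LCN2 was 21.6 times CAMP and 116 times LTF by FPKM. In CTR and P30 CAMP and LTF were near 0, and ratios to them there depend on a few fragments. Summed, the FPKM of LTF, LCN2 and CAMP was 4.07 in CTR, 279 in CEBPA and 3.37 in P30, while that of AZU1 and PRTN3 was 2.91, 2.87 and 4.99.

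In GRCh37 LCN2 (ENSG00000148346) spans 130911350 to 130915732 of chromosome 9 (plus strand), and its main transcript has 7 exons. CAMP (ENSG00000164047) spans 48264837 to 48266981 of chromosome 3 (plus strand) and has 4 exons. LTF (ENSG00000012223), on the minus strand of the same chromosome from 46477136 to 46526724, has 17 exons. None of these genes overlaps another annotated gene. The 150 bases before their starts are shown for comparison with those of the primary granule genes, with the same motifs in capitals. They lie, in GRCh38.p14, at chr9:128149303-128149452 for LCN2 (plus strand), chr3:48223345-48223494 for CAMP (plus strand) and chr3:46464906-46465055 for LTF (minus strand), whose start here is the one of its 3 RefSeq starts with a match to TTGCNNAA.
LCN2: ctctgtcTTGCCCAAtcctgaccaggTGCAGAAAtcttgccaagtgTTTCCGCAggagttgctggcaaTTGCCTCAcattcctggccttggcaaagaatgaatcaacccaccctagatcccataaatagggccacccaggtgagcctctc
CAMP: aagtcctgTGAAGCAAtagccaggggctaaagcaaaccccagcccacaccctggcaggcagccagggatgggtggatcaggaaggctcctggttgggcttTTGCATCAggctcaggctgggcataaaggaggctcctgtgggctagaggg
LTF: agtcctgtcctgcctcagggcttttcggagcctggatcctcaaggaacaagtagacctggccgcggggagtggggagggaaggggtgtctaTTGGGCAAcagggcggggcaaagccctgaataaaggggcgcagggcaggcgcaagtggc

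LTF held TTGGGCAA 59 bases before the start shown, which is the only start of LTF with a match to TTGCNNAA. LCN2 held TTGCCCAA, the same 8 bases on the other strand, 143 bases before its start. CAMP held no match to TTGCNNAA or TTNNGNAA in its window and 3 to TGNNGNAA, of which 2 are within the bases shown. Counted per promoter, as for all promoters, a match to TTGCNNAA was found in 4 of the 7 promoters of the 5 members with an entry, LTF having 3 of them. The genes with a match included LCN2 and LTF, which were over 2-fold higher in CEBPA, AZU1, which was not, and PRTN3, which was too low to compare. MMP9, LYZ and SRGN had no entry among these promoters, so they were not searched for a motif.

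MMP9 encodes gelatinase B, the protease that marks tertiary granules. It had 0.0716 FPKM in CTR, 0.556 with CEBPA and 0.0562 with P30. CEBPA was the highest group, but all values were under 1 FPKM and no difference was taken. MMP9 (ENSG00000100985) spans 44637547 to 44645200 of chromosome 20 (plus strand) in GRCh37 with 13 exons, and is overlapped on the other strand by SLC12A5-AS1. The libraries were made with a strand-specific kit, but whether the counting used strand is not given in the sources used here.

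LYZ encodes lysozyme, which cleaves the peptidoglycan of bacterial walls. It had 45.5 FPKM in CTR against 1781 in CEBPA and 47.6 in P30, so that CTR and P30 were almost the same and CEBPA far higher. Its difference of log2(FPKM + 1) was 5.26 in CEBPA vs CTR (41st highest of 13673 genes), 5.20 in CEBPA vs P30 (35th highest of 13569) and 0.07 in P30 vs CTR. By level LYZ ranked 2483 of 16586 symbols in CTR, 2400 in P30 and 44 in CEBPA. LYZ (ENSG00000090382) spans 69742161 to 69748014 of the plus strand of chromosome 12 in GRCh37, with 4 exons, and overlaps the gene ENSG00000257764 on the other strand.

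SRGN encodes serglycin, a small core protein whose glycosaminoglycan chains hold basic proteins in the granule matrix of many blood cells, not only neutrophils. It was the highest member in CTR and P30. Its FPKM was 124 in CTR, 636 in CEBPA and 107 in P30, and its difference of log2(FPKM + 1) was 2.35 in CEBPA vs CTR, -0.20 in P30 vs CTR and 2.55 in CEBPA vs P30. SRGN (ENSG00000122862) spans 70847859 to 70864561 of chromosome 10 (plus strand) in GRCh37, has 3 exons and overlaps no other gene.

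The makeup of the granule transcripts differed between the groups. SRGN made up 70.2% of the FPKM summed over the 8 members in CTR and 65.7% in P30, but 23.6% in CEBPA. LYZ made up 25.8%, 29.1% and 66.0% in CTR, P30 and CEBPA. The whole sum was 176 FPKM in CTR and 163 in P30, against 2699 in CEBPA. These are bulk RNA samples, in which more cells that express a gene cannot be told apart from more RNA per cell.

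Set against all genes, 5 of the 6 members compared in CEBPA vs CTR were at least 2-fold higher and 0 were at least 2-fold lower. Of all 13673 genes compared, 14.0% were 2-fold higher and 6.92% 2-fold lower. The members' median difference was 3.0 and that of all genes -0.01. LTF and CAMP had to be higher to be compared at all, so the count rests on LCN2, LYZ, SRGN and AZU1, which exceeded 1 FPKM in CTR too: 3 of these were higher and AZU1 was not. The shares of all genes include genes that entered through CEBPA alone, and none was computed for genes over 1 FPKM in CTR.

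In P30 vs CTR 4 members were compared, and 0 were at least 2-fold higher or lower, where 1.02% of all 12395 genes were higher and 0.613% lower. The differences of log2(FPKM + 1) were 0.59 for AZU1, 0.07 for LYZ, -0.20 for SRGN and -0.25 for LCN2. Across all genes the spread of this comparison, as the scaled median absolute deviation, was 0.20, so that LYZ lay within that spread, SRGN and LCN2 close to its edge, and AZU1 beyond it as the 330th highest. LTF, CAMP and MMP9 are not listed in the table of CTR and P30 and had under 1 FPKM in both groups.

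In CEBPA vs P30, which shares the CEBPA libraries with CEBPA vs CTR, 5 of 6 members were again at least 2-fold higher and 0 lower, where 13.1% of all 13569 genes were higher and 5.79% lower. LTF and CAMP entered this comparison through CEBPA alone as well. The median difference of the members was 3.11 and that of all genes -0.04. AZU1, the exception, was 1.96 times as high in P30 as in CEBPA by FPKM.

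**Figure D2:**
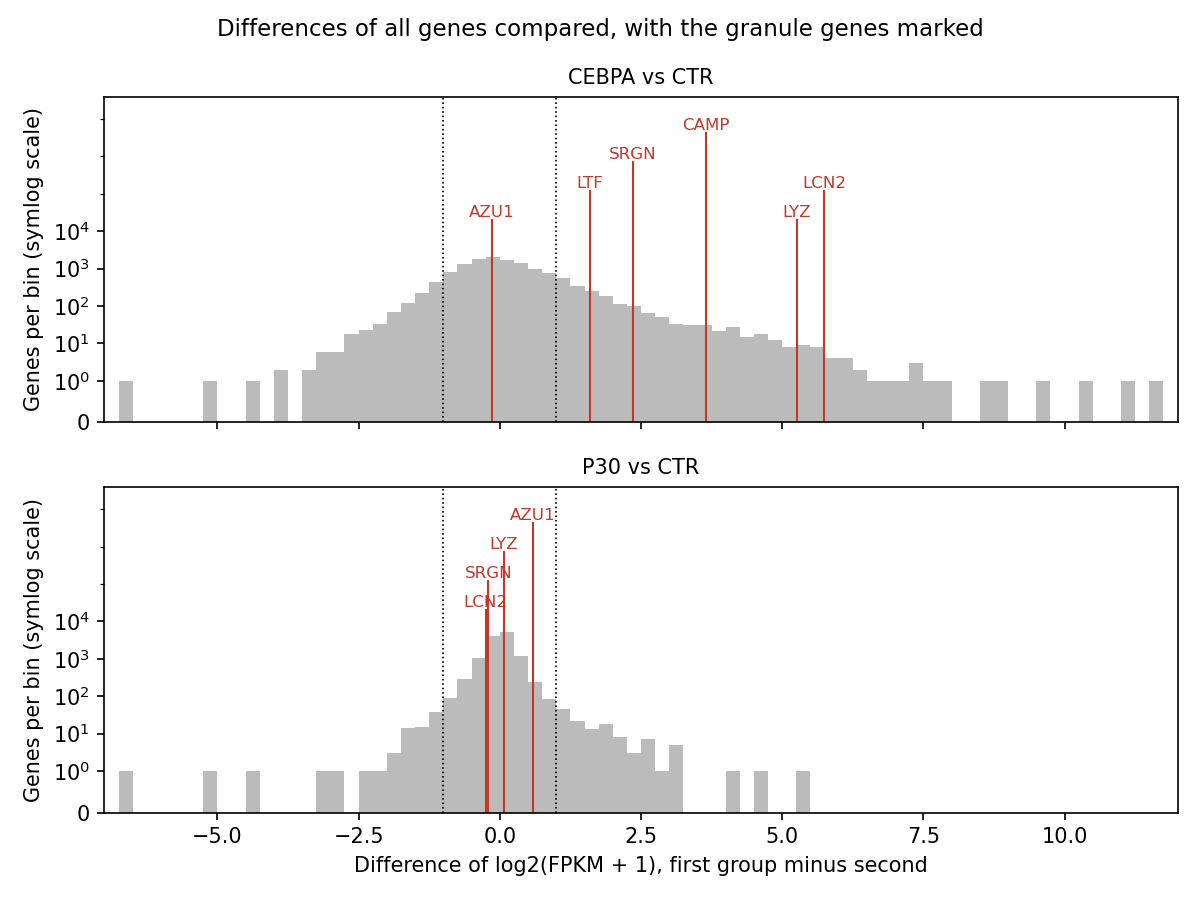
Number of genes per bin (vertical axis, symlog scale) by the difference of log2(FPKM + 1) (horizontal axis, bins of 0.25) in CEBPA vs CTR (top) and P30 vs CTR (bottom), with red lines at the granule genes compared and dotted lines at a 2-fold difference. In CEBPA vs CTR LCN2 (5.74) and LYZ (5.26) lie in the far right tail and AZU1 (-0.14) in the centre, and in P30 vs CTR all 4 members lie within the dotted lines.

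Other genes of each granule class were read in the same way, in lists written with earlier results of these data known. A listed gene at or under 1 FPKM in CTR was compared only if the other group was higher, so each count is given also for the genes over 1 FPKM in CTR. The shares of all genes to read the full counts against are the 14.0% higher and 6.92% lower of CEBPA vs CTR. These shares include genes that entered through CEBPA alone. No share was computed for all genes over 1 FPKM in CTR, so the narrower counts have none to be read against. Of 15 primary granule genes 7 had a value, and 6 were compared in CEBPA vs CTR: 2 were at least 2-fold higher, 1 lower, and the median difference was -0.19. PRSS57, a serine protease of these granules, had 6.84 FPKM in CTR, 1.67 with CEBPA and 12.5 with P30. CD63 and CD68, membrane proteins that primary granules share with the lysosomes of other cells, had 472 and 505 FPKM in CTR, 394 and 430 in CEBPA, and 574 and 580 in P30. AZU1, PRSS57, CD63 and CD68 thus had the same order of groups, with CEBPA lowest and P30 highest, an order held by 22.3% of 13670 genes over 1 FPKM in at least 1 group. Of the 4 genes over 1 FPKM in CTR 0 were higher and 1 was lower. The genes that were higher in CEBPA were RNASE2 and RNASE3, closely related ribonucleases of eosinophils and neutrophils that can share reads. RNASE2, listed at 0 in CTR, stood at 12.5 FPKM in CEBPA and 0.0413 in P30, and RNASE3 had 0.0257, 1.77 and 0.0234. MPO, ELANE, CTSG, BPI and the defensin genes were not analysed here.

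Of 17 secondary granule genes 15 had a value and 14 were compared in CEBPA vs CTR, of which 13 were at least 2-fold higher and 0 lower. For 9 of the 13 CTR was at or under 1 FPKM, so that they could enter only by being higher, and the median difference of 5.48 holds these genes too. Of the 5 genes over 1 FPKM in CTR, 4 were higher (LCN2, CRISP3, STOM and CYBB) and CYBA was not. ORM1, which encodes the acute phase protein orosomucoid and has a close paralog with which it can share reads, had 0.178 FPKM in CTR against 891 in CEBPA and 3.41 in P30. ARG1, the arginine-degrading enzyme arginase, had 0.127, 460 and 4.27 FPKM. CHI3L1, a chitinase-like glycoprotein, had 0.0705, 227 and 1.38 FPKM, and the collagenase gene MMP8 had 0.0582, 177 and 0.211. In each of these CEBPA was far above both other groups.

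Further genes of that list behaved alike in CEBPA. HP, the gene of the hemoglobin-binding protein haptoglobin, had 0.193 FPKM in CTR, 209 with CEBPA and 1.12 with P30. TCN1, which encodes a vitamin B12-binding protein, had 0.795, 47.7 and 6.37 FPKM, and the pentraxin gene PTX3 had 0.295, 41.3 and 0.722. STOM, a membrane protein that red cells also carry, had 24.2, 176 and 20.6 FPKM. Of the pair of cytochrome b558 genes in secondary granule membranes, CYBB had 1.79, 152 and 1.90 FPKM and CYBA 292, 239 and 359, so that CYBB was 5.78 higher in CEBPA vs CTR on the log2(FPKM + 1) scale and CYBA -0.28. PGLYRP1, a peptidoglycan-recognition protein, stayed under 1 FPKM.

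Some secondary granule genes were also higher in P30. Of 10 genes compared in P30 vs CTR, 5 were at least 2-fold higher and 0 lower, where 1.02% of all genes were higher. For 4 of the 5 (ARG1, TCN1, ORM1 and CHI3L1) CTR was under 1 FPKM and P30 alone brought them in, and with a filter at 5 FPKM 2 genes were higher. The highest was CRISP3, a cysteine-rich secretory protein, with 1.67 FPKM in CTR against 97.6 in CEBPA and 49.7 in P30, a difference of 4.25 in P30 vs CTR. ARG1 differed by 2.22, TCN1 by 2.04, ORM1 by 1.91 and CHI3L1 by 1.15. LCN2, at -0.25, was not among them, and neither were STOM (-0.22), CYBB (0.06), CYBA (0.30) and HP (0.83). For ARG1, ORM1 and CHI3L1 the P30 level, of 1.38 to 4.27 FPKM, was a small part of that in CEBPA.

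Of 13 tertiary granule and secretory vesicle genes 12 had a value and 9 were compared in CEBPA vs CTR, with 6 at least 2-fold higher, 0 lower and a median of 1.94. Of the 6, TNFAIP6, FPR1, ALPL and CR1 were under 1 FPKM in CTR and entered through CEBPA, and of the 5 genes over 1 FPKM in CTR 2 were higher. TNFAIP6, a hyaluronan-binding protein, had 0.0227 FPKM in CTR, 99.4 with CEBPA and 0.415 with P30, and QSOX1, a thiol oxidase, had 30.5, 115 and 34.8. The receptor gene FPR1, for formylated bacterial peptides, had 0.105, 13.0 and 0.191 FPKM, the alkaline phosphatase gene ALPL 0.203, 10.1 and 1.02, and the complement receptor gene CR1 0.290, 3.96 and 0.523. In P30 vs CTR, where 1.02% of all genes were at least 2-fold higher, 3 of the 6 genes compared were higher. These were the integrin genes ITGB2, with 1.39 FPKM in CTR against 39.9 in CEBPA and 20.3 in P30, and ITGAM, with 2.59, 2.43 and 14.3, and the metalloprotease gene ADAM8, with 10.1, 5.66 and 27.6. ITGAM and ADAM8 were thus highest in P30, as AZU1 was, and each was at least 2-fold lower in CEBPA than in P30. CFP, SLC11A1 and MMP25 had at most 1.22 FPKM in any group.

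**Figure D3:**
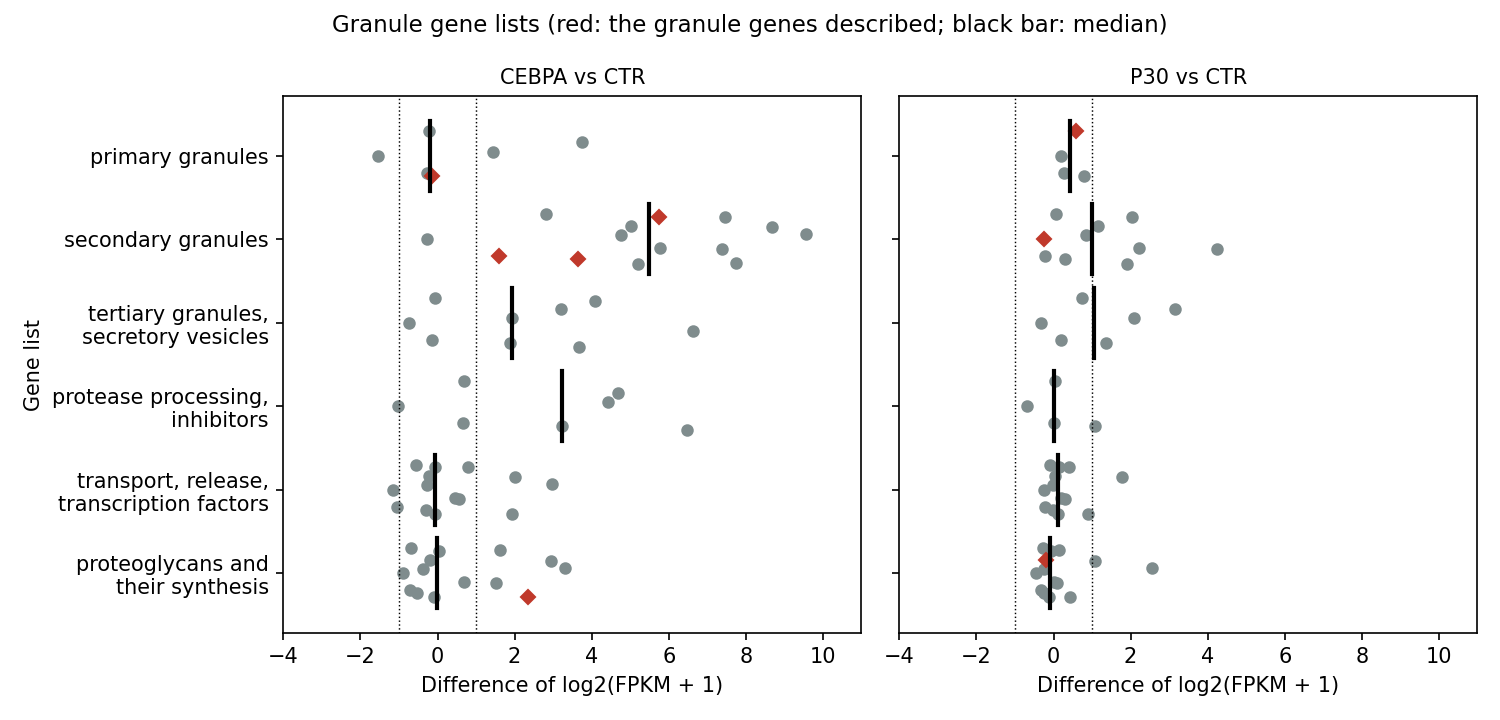
Difference of log2(FPKM + 1) (horizontal axis) of each gene compared in 6 lists of granule genes (rows), for CEBPA vs CTR (left) and P30 vs CTR (right), with the members AZU1, LTF, LCN2, CAMP and SRGN in red, medians as black bars and dotted lines at a 2-fold difference. In CEBPA vs CTR the secondary granule list has a median of 5.48 and the primary granule list one of -0.19. These medians include genes at or under 1 FPKM in CTR that could enter only by being higher in CEBPA. They were 9 of the 14 secondary and 2 of the 6 primary granule genes compared.

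Of 10 genes whose proteins process or inhibit granule proteases 8 had a value and 7 were compared in CEBPA vs CTR, of which 4 were at least 2-fold higher and 1 lower. All 4 were under 1 FPKM in CTR and entered through CEBPA, and of the 3 genes over 1 FPKM in CTR (CTSC, SERPINB1 and TIMP1) 0 were higher and 1 was lower. SLPI and PI3, inhibitors of neutrophil elastase, had 90.0 and 8.40 FPKM in CEBPA and at most 0.163 in CTR and P30. The cystatin A gene CSTA had 0.712 FPKM in CTR, 36.0 with CEBPA and 2.64 with P30, and the serpin gene SERPINB10 had 0.0488, 26.1 and 0.133. CTSC, the dipeptidase that activates the serine proteases of primary granules, had 84.4, 136 and 86.0 FPKM, and SERPINB1, a cytosolic inhibitor of the same proteases, had 83.5, 133 and 83.9. Both were under 2-fold higher in CEBPA. TIMP1, an inhibitor of MMP9 and related enzymes, had 279 FPKM in CTR against 137 in CEBPA and 173 in P30, and was the gene lower in CEBPA.

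Genes for the transport and release of granules differed in both directions. Of 14 genes with a value out of 18, 3 were at least 2-fold higher and 2 lower in CEBPA vs CTR, with a median of -0.07 and a range from -1.14 to 2.96. The 3 were under 1 FPKM in CTR, and of the 11 genes above it 0 were higher and 2 lower. The genes that were higher were the transcription factors CEBPE and GFI1, which were in that list as regulators of granule genes, and RAB27B, a GTPase of granule docking, with 0.615 FPKM in CTR, 5.16 with CEBPA and 0.603 with P30. CEBPE, the C/EBPε gene, had 0.560, 11.2 and 4.31 FPKM, and GFI1 had 0.524, 5.09 and 1.84. Lower were UNC13D, a priming factor for granule fusion, with 102, 45.6 and 100 FPKM, and the fusion protein gene SNAP23, with 86.5, 41.2 and 81.4. RAB27A, VAMP8, HAX1 and STXBP3, the highest of the others by level, differed by -0.55 to 0.79 in CEBPA vs CTR.

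SRGN was compared with genes that build its glycosaminoglycan chains and with other proteoglycans and granule proteins of the same list. Of 16 genes with a value 14 were compared in CEBPA vs CTR, with 5 at least 2-fold higher, 0 lower and a median of -0.02. Of the 13 genes over 1 FPKM in CTR 4 were higher, PRG3 being the gene below. None of the chain-synthesis genes was among the 5, which were SRGN, the syndecan genes SDC2 and SDC4, and PRG2 and PRG3, the genes of eosinophil major basic protein and its homolog. NDST2, which sulfates heparan chains, had 28.7 FPKM in CTR against 46.6 in CEBPA and 27.6 in P30, and B3GAT3, an enzyme of the linker between chain and core, had 54.0, 28.6 and 45.3. SDC2 had 2.15, 23.4 and 1.60 FPKM and SDC4 had 7.67, 23.7 and 7.82, both with CEBPA highest and CTR and P30 close, as for SRGN.

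Whether neighbouring genes differed along with the members was looked at after the values had been seen. The nearest coding gene with a value on each side of a member gave 14 genes that are no members, of which 13 were compared. In CEBPA vs CTR 1 of the 13 was at least 2-fold higher and 2 lower, where 14.0% of all genes were higher and 6.92% lower. Counts this small cannot be told apart from those shares. The median of the flanking genes was -0.20. LCN2 lies between PTGES2 (36.1 FPKM in CTR and 19.5 in CEBPA) and CIZ1 (143 and 130), and LYZ between CPSF6 (52.3 and 51.7) and YEATS4 (38.2 and 31.8). CAMP has CDC25A (21.6 and 18.6) on one side and ZNF589, the flanking gene that was higher, on the other, with 12.7 FPKM in CTR, 32.1 with CEBPA and 13.2 with P30. The genes lower in CEBPA were PALM next to AZU1 and CCRL2 next to LTF, the latter with 6.23 FPKM in CTR and 2.42 in CEBPA.

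**Figure D4:**
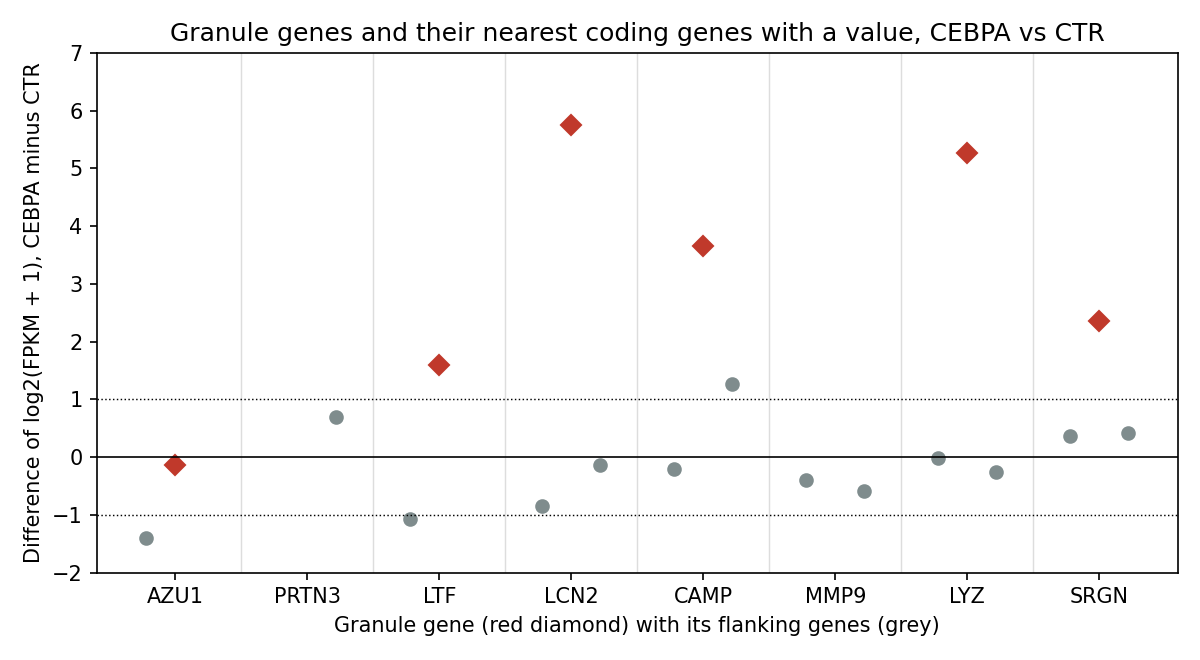
Difference of log2(FPKM + 1) in CEBPA vs CTR (vertical axis) of each granule gene compared (red diamonds) and of the nearest coding gene with a value on its lower-coordinate (left) and higher-coordinate side (grey points), leaving out AZU1 and PRTN3 as neighbours of each other. The flanking genes lie between -1.40 and 1.27, and LCN2, LYZ, CAMP, SRGN and LTF each lie above their own neighbours compared. CAMP and LTF could enter only by being higher in CEBPA, and for LTF the neighbour LRRC2 was too low to compare.

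For each member over 1 FPKM in at least 1 group, the 3 genes with the nearest pair of differences (CEBPA vs CTR and P30 vs CTR, by Euclidean distance) were listed among 13670 genes. This likeness rests on 3 pooled values per gene. Nearest to LCN2 were PPBP, MIR573 and CYBB, and nearest to CAMP were CYP19A1, TRNAI2 and FCAR, an Fc receptor gene of myeloid cells. BDH1, HCAR3 and VNN3 were nearest to LYZ, and CCDC138, TMEM254 and the myeloid receptor gene TREM1 to LTF. SRGN had VAMP1, MAT1A and C5orf42, and AZU1 had ABO, MTL5 and PNP. The distances ranged from 0.00929 to 0.311 on the log2 scale.

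Markers of K562 and of other blood cells were read in the same way. All 7 erythroid markers with a value exceeded 1 FPKM in every group, with a sum of 1763 FPKM in CTR against 684 in CEBPA and 1175 in P30. Of 8 monocyte and macrophage markers with a value, 2 exceeded 1 FPKM in CTR, 5 with CEBPA and 4 with P30, and their sums of 507, 443 and 585 FPKM were nearly all CD68. Of 5 compared in CEBPA vs CTR 2 were at least 2-fold higher and 0 lower, where 14.0% of all genes were higher. Both, FCGR1A and CSF1R, were under 1 FPKM in CTR and entered through CEBPA. Of the 2 markers over 1 FPKM in CTR 0 were higher. FCGR1A, an Fc receptor gene, had 0.129 FPKM in CTR, 4.83 with CEBPA and 0.944 with P30. CSF1R, the receptor gene for macrophage colony-stimulating factor, had 0.111, 1.79 and 1.54. CSF1R was also 2-fold higher in P30 vs CTR, which it entered through P30 alone and where 1.02% of all genes were higher. The monocyte marker CD14 had 0.215, 1.10 and 0.228 FPKM. The 3 B lymphocyte markers with a value summed to 9.87 FPKM in CTR against 2.78 in CEBPA and 9.56 in P30, and the 7 cytotoxic lymphocyte genes to 14.3, 10.5 and 11.3. Of 6 platelet granule genes 1 exceeded 1 FPKM in CTR and P30 and 4 did so in CEBPA, and their sums of 13.5, 66.2 and 14.2 FPKM differed through PPBP. The part of other cell types in the levels of the granule genes was not tested.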

How the data were processed

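The authors aligned paired-end reads of strand-specific libraries to hg19 with TopHat2, assembled transcripts with Cufflinks and Gencode, and used Cuffdiff to estimate FPKM. They deposited FPKM in 3 tables, each with 1 value per gene for 2 groups and both replicates pooled. The replicates came from separate sequencing runs, which cannot be told apart in pooled values. How rows were selected for each table is not given in the sources used here. The number of columns of values left out was 0.

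Differences of log2(FPKM + 1) were taken within each table over rows with over 1 FPKM in at least 1 group, without a test, and a difference of 1 was read as 2-fold. Values of all 3 groups were joined by symbols that occur once. The computation was tested on simulated data. Members, gene lists and the rule for named genes (members, list genes with a 2-fold difference, the 4 highest others of a list, and nearest genes) were chosen with earlier results of these data known. Alternatives were a pseudocount of 0.1, centring, no filter or 5 FPKM, summed symbols, and only genes in all 3 tables. Python 3.11.15, numpy 2.4.6, pandas 2.3.3 and matplotlib 3.10.9 were used.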

Additional observations from a re-analysis of the deposited data

How the results depend on the processing

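No paired analysis was possible because each group has 1 pooled value per gene, and the replicate block and leaving out each replicate could not be run for the same reason. A difference was taken as moved beyond 0.20, the spread of P30 vs CTR, and a count beyond 1.5 times. For 64 results 359 values were recomputed: 331 kept within those limits, 28 did not, and the sign changed in 1, the median of the members in P30 vs CTR, which was -0.07 and became 0.07 with no filter. The difference of a single member could not move with other filters, summed symbols or only genes in all 3 tables. Those values among the 331 are therefore no check. With pseudocount 0.1 the median difference of the members was 4.50 against CTR and 4.17 against P30 in the CEBPA cells, and 2 transport genes were higher in P30 vs CTR. With no filter, which adds PRTN3 and MMP9, these medians were 1.98 and 2.02. With a filter at 5 FPKM, which removes AZU1 and LTF, they were 4.46 and 4.43. That filter left 1 primary granule gene higher in CEBPA than in CTR and 1 than in P30, and left, in P30 vs CTR, 2 secondary granule genes, 0 protease processing genes, 0 transport genes and 1 proteoglycan gene. With only genes listed in all 3 tables, which removes LTF and CAMP, 3 members were higher in both comparisons with CEBPA, with medians of 3.81 and 3.88. Then 0 primary granule genes and 1 protease processing gene were higher in each. AZU1 was below CTR and P30 in CEBPA in every one of these settings that kept it, but only centring could have changed this order.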

Other observations

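Granule genes of eosinophils, mast cells and basophils were looked at as the nearest relatives of the neutrophil granule genes. Of 14 such genes 10 had a value and 7 were compared in CEBPA vs CTR, of which 6 were at least 2-fold higher and 1 lower, where 14.0% of all genes were higher. Of the 6, EPX, PRG3, RNASE2 and RNASE3 were under 1 FPKM in CTR and entered through CEBPA, and of the 3 genes over 1 FPKM in CTR 2 were higher and 1 lower. PRG2, the gene of eosinophil major basic protein, was already at 122 FPKM in CTR and stood at 379 in CEBPA and 717 in P30, so that P30 was the highest group. Its difference of log2(FPKM + 1) was 2.54 in P30 vs CTR and 1.63 in CEBPA vs CTR. Its homolog PRG3 had 0.0363 FPKM in CTR, 9.29 with CEBPA and 1.17 with P30. CLC, which encodes the Charcot-Leyden crystal protein, followed the pattern of LCN2 and LYZ instead, with 1.35, 53.5 and 1.20 FPKM. EPX, the eosinophil peroxidase gene, had 0.0199, 1.12 and 0.136 FPKM. GATA2, a transcription factor of progenitors and mast cells, was the gene lower in CEBPA, with 57.4, 24.3 and 51.7 FPKM. Of the cytotoxic granule genes, PRF1 (perforin) had 1.94 FPKM in CTR against 0.150 in CEBPA and 0.908 in P30, and NKG7 had 0.478, 3.18 and 1.74. PPBP, a chemokine gene of platelet granules, had 0.0705, 51.1 and 0.0223 FPKM, while ITGA2B, the megakaryocyte integrin gene, had 12.6, 11.5 and 13.2.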
